A study of Bos taurus with 12 samples.

Results

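The VEGF and angiopoietin genes described here are 10 genes of blood vessel signalling: the ligands VEGFA and VEGFC, the receptors FLT1 and KDR, the co-receptors NRP1 and NRP2, the angiopoietins ANGPT1 and ANGPT2, the angiopoietin-like protein ANGPTL2 and the adrenomedullin receptor CALCRL. They were chosen by name, with earlier results of these data known. Every probe set annotated with 1 of these symbols and no other was taken. This gave 16 of the 24016 probe sets other than controls, and all 10 genes had at least 1. The values came from 12 Affymetrix Bovine GeneChips, with 1 array of intralobular stroma and 1 array of epithelium from each of 6 Holstein cows. Both tissues came from dry cows 3 weeks before calving, and the labels give no genetic modification. The biopsies were cut into explants, which spent 2 h in culture with the hormones insulin and hydrocortisone, antibiotics and the thymidine analogue BrdU, so every array of either tissue shares this treatment and no untreated tissue was on the arrays used here. The cells were cut from frozen sections by laser capture microdissection, and the RNA was amplified before hybridization. Per the methods, lysates of more slides were pooled for a stromal capture than for an epithelial one, and blood vessels and obvious immune cells were avoided in the stroma in order to enrich for fibroblasts. The labels give lactation number 3 for cow 1, 2 for cow 2 and 1 for the other 4 cows, although the methods call the cows multiparous.

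VEGFA is secreted by many cell types and acts on endothelial cells, the lining of blood vessels, mainly through the kinase receptor KDR. FLT1 binds VEGFA tightly and signals less, and NRP1 and NRP2 are co-receptors that also bind semaphorins. VEGFC is known for the growth of lymphatic vessels. ANGPT1 and ANGPT2 bind the endothelial receptor TEK, ANGPT1 as an agonist that keeps vessels stable and ANGPT2 often as its antagonist. The mammary gland builds a dense capillary bed around its alveoli as it grows before calving.

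Of the 10 genes, 5 were higher in stroma: FLT1, NRP1, ANGPT2, ANGPTL2 and CALCRL. None was higher in epithelium at the threshold, an adjusted p under 0.05 in the limma fit with cow as a block. The brightest probe set stands for each gene, and 7 of the 10 genes had theirs in the tested set, the brighter probe sets with a mean of at least 3.57 over the 12 arrays. VEGFA and NRP2 were tested and did not pass. VEGFC, KDR and ANGPT1 were too dim for the tested set, and their values come from a fit of all probe sets. In that fit, which leaves no member out, the same count of 5 in stroma and 0 in epithelium was obtained, against a background of 2.46% of all 9155 genes higher in stroma and 2.18% higher in epithelium. Among the 5222 tested genes the background was 4.48% higher in stroma and 4.62% higher in epithelium. In 5 genes (VEGFC, FLT1, NRP1, ANGPTL2 and CALCRL) all 6 stromal values lay above all 6 epithelial values, which held for 2.58% of all genes, and in 0 genes did they lie below, which held for 1.89%. The plot of the members by array shows these values.

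**Figure D1:**
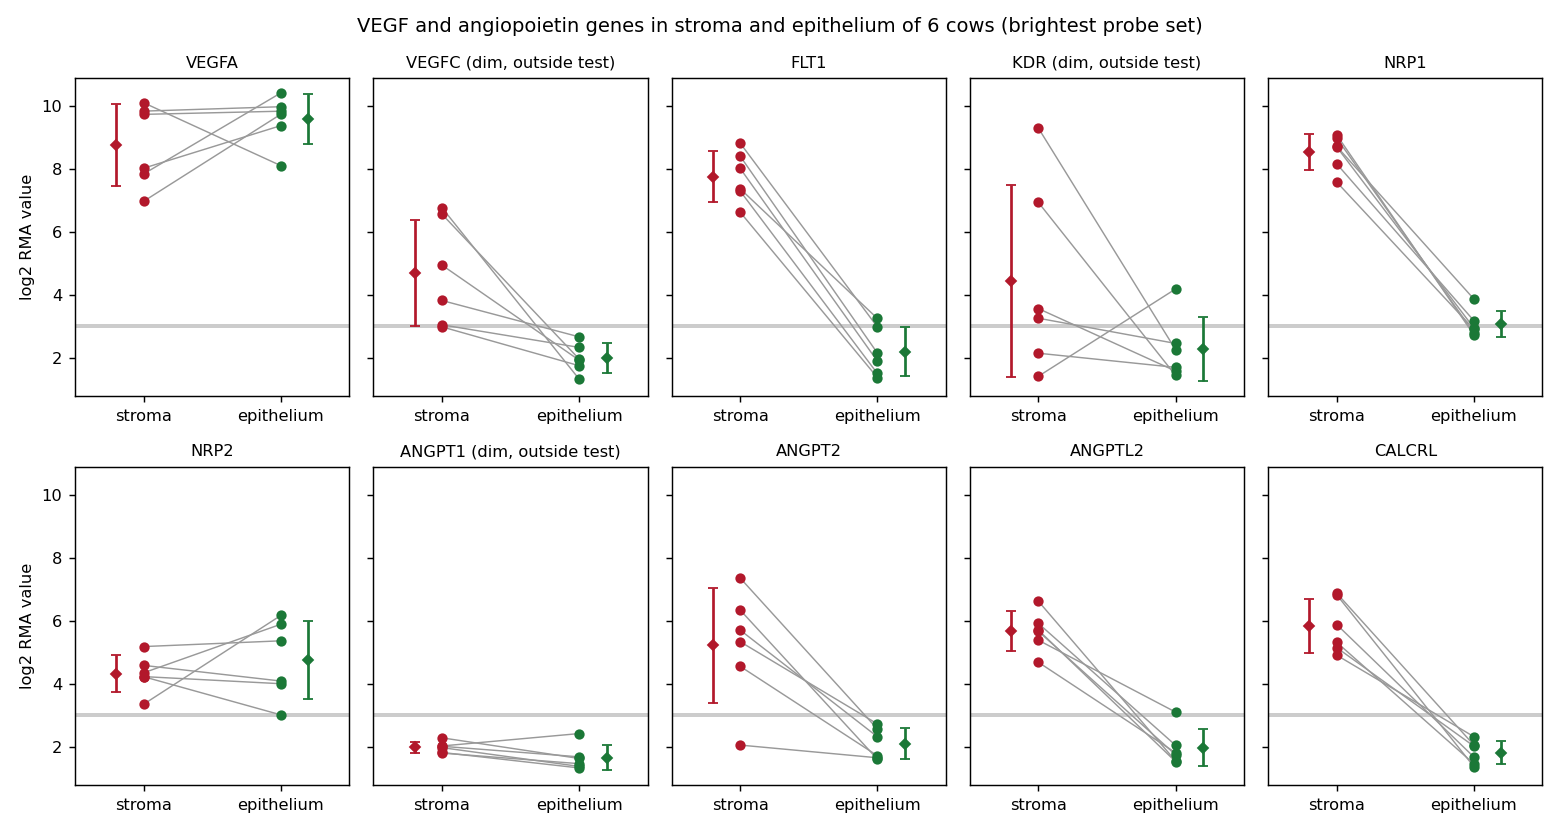
Log2 RMA values (vertical axis) of the brightest probe set of each gene in 6 stromal arrays (left, red) and 6 epithelial arrays (right, green), with grey lines joining the tissues of a cow, diamonds and bars for mean ± SD, and a grey band for the array medians of 2.95 to 3.08. FLT1, NRP1, ANGPTL2 and CALCRL are separated between the tissues, whereas VEGFA and NRP2 overlap and ANGPT1 lies below the band on all arrays.

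VEGFA gave bright signals in both tissues. Its brightest probe set ranked 358 of all probe sets by mean signal and read 6.97 to 10.1 (median 8.87) in stroma, against 8.10 to 10.4 (median 9.78) in epithelium, all on the log2 scale. The mean was 8.75 ± 1.30 in stroma and 9.57 ± 0.80 in epithelium (SD, n = 6 each). The values overlapped, and the difference of stroma minus epithelium was −0.82 (SE 0.63, 95% confidence interval −2.25 to 0.61), which did not pass (adjusted p = 0.473 in limma). Per cow the difference was −0.14, −0.10, 2.00, −2.57, −2.76 and −1.35 in cows 1 to 6, so that 5 cows had the higher value in epithelium and cow 3 alone had it in stroma.

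A second, less bright VEGFA probe set gave the larger difference. It read 6.22 to 9.18 (median 7.06) in stroma, against 8.81 to 9.76 (median 9.14) in epithelium. The epithelial values were close together, with an SD of 0.32, and the stromal values were spread, with an SD of 1.32. The difference was −1.77 (SE 0.47, 95% interval −2.84 to −0.70), a 3.41-fold higher mean in epithelium, with an adjusted p of 0.0501 in limma that missed the threshold. Over 17 alternative fits this adjusted p ranged between 0.0315 and 0.442, and it passed in 5 of them (cow as a random block, another prior, a brighter tested set, low values raised to the array median, and cow 1 left out).

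The probe sets of VEGFA disagreed in cow 3. The first gave 2.00 and the second −2.48 there, a gap of 4.47. The second probe set gave 0.10, −0.93, −2.48, −1.72, −2.73 and −2.87 in cows 1 to 6, so that it too had 5 cows with the higher value in epithelium, and its exception was cow 1. The mean of both probe sets differed by −1.30 between the tissues, with an adjusted p of 0.115 in limma. In stroma the brightest probe set was at 9.83, 9.73 and 10.1 in cows 1, 2 and 3 and at 7.84, 6.97 and 8.02 in cows 4, 5 and 6. The added poly-A control RNAs, which are put into each sample before labelling, averaged 4.28, 4.15 and 7.10 on the stromal arrays of cows 1, 2 and 3, against 9.07, 10.99 and 10.4 on those of cows 4, 5 and 6. Their part in the VEGFA values was not tested, nor was that of lactation number. Without cows 4, 5 and 6, a choice made after seeing the data, the difference of the brightest probe set was 0.59. It was of opposite sign and not past the threshold.

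VEGFC was dim, and its values in the tissues did not overlap. The single probe set read 2.98 to 6.77 (median 4.38) in stroma, against 1.32 to 2.67 (median 1.94) in epithelium. All 6 epithelial values were below the median of their own array, as was 1 stromal value. The stroma was above the epithelium in 6 of 6 cows, by 0.72, 4.60, 5.44, 1.23, 1.15 and 3.02, and cows 2 and 3 gave the largest gaps. The mean difference was 2.69 (SE 0.69, n = 6 cows) with an adjusted p of 0.102 in the limma fit of all probe sets, so VEGFC did not pass. It passed when cow was left out of the fit (adjusted p = 0.0406, limma) and with cow as a random block (0.0338), and these alternatives kept the same difference.

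Placing the ligands side by side within each cow, VEGFA minus VEGFC in their difference between tissues averaged −3.52 ± 1.38 (SD, n = 6 cows) and had the same sign in 6 of 6 cows. The exact sign-flip test, two-sided, gave p = 0.0312, the smallest that 6 cows allow, and 0.0625 after adjustment over the 4 pairs compared. After adjustment a pair could pass only if most of the 4 pairs reached that smallest p. The change was therefore not shown to be unequal at the threshold, and the test cannot show that it was equal.

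FLT1, the receptor that binds VEGFA most tightly, was higher in stroma by its brightest probe set. The brightest of its 3 probe sets read 6.62 to 8.82 (median 7.69) in stroma, against 1.37 to 3.25 (median 2.02) in epithelium. No value overlapped, and the per-cow difference stayed between 4.12 and 6.25. The mean difference was 5.56 (SE 0.39, 95% interval 4.67 to 6.45), which is 47.2-fold, with an adjusted p of 0.000178 in limma. In 4 of 6 epithelial arrays FLT1 was below the array median, so the fold depends on the background there. With every value under an array's median raised to that median, the difference was 4.71, or 26.2-fold.

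Both other FLT1 probe sets were dim, outside the tested set, and gave smaller differences. The second read 2.52 to 6.07 (median 3.78) in stroma, against 2.26 to 2.80 (median 2.55) in epithelium, a difference of 1.47 (SE 0.57, adjusted p = 0.253 in limma). The third read 2.13 to 3.82 in stroma, against 1.78 to 2.29 in epithelium, a difference of 0.81 (SE 0.32, adjusted p = 0.265). Their per-cow differences were of the same sign as those of the brightest probe set in 5 of 6 cows, and both were highest in cows 1 and 6. The 3 probe sets therefore share a direction and differ widely in size, and the call for FLT1 rests on the brightest.

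**Figure D2:**
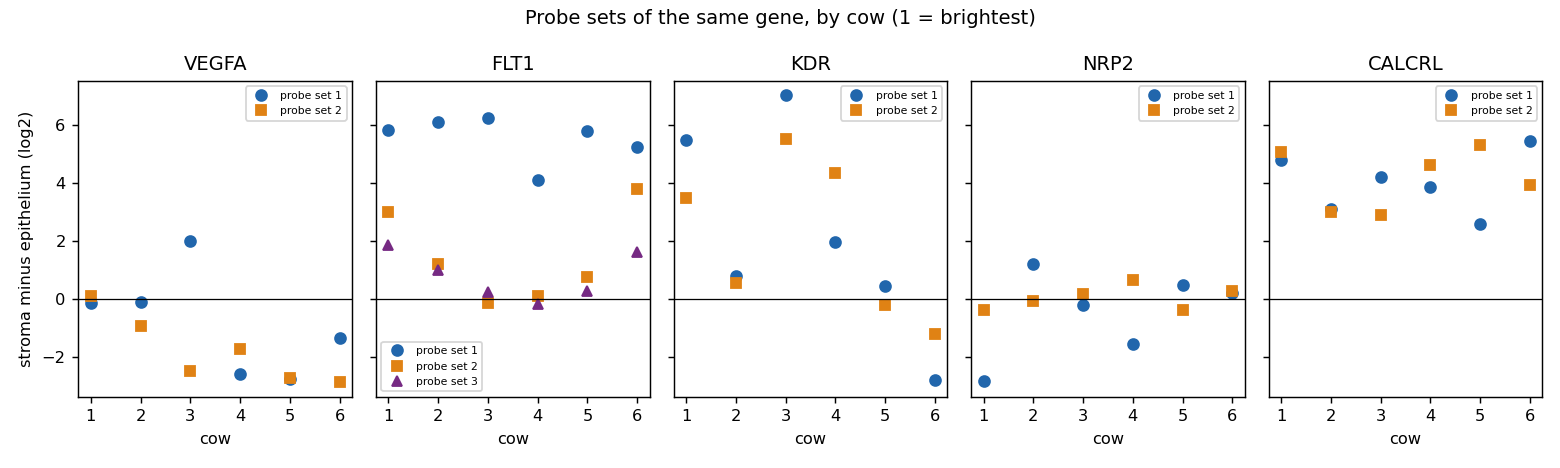
Difference of stroma minus epithelium (log2, vertical axis) in each cow (horizontal axis) for the genes with several probe sets, numbered in order of brightness. The probe sets of CALCRL lie between 2.59 and 5.46 in all cows, those of VEGFA part in cow 3, and the dim probe sets of FLT1 lie below the brightest one in every cow.

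KDR, the main signalling receptor for VEGFA, varied most among cows in its difference. Its brighter probe set read 1.41 to 9.29 (median 3.41) in stroma, against 1.44 to 4.19 (median 1.98) in epithelium. In cows 1 to 6 the stromal values were 6.93, 3.26, 9.29, 3.56, 2.15 and 1.41. This probe set was thus bright in the stroma of cows 1 and 3 and near or below the array median elsewhere. The mean difference was 2.16 (SE 1.22) with a 95% interval of −0.70 to 5.03, and the adjusted p was 0.419 in the limma fit of all probe sets. The interval includes 0 as well as the difference found for ANGPTL2.

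The second KDR probe set gave nearly the same mean difference of 2.09 (SE 0.94, adjusted p = 0.317, limma). It read 2.05 to 7.14 (median 3.59) in stroma, against 1.32 to 3.34 (median 1.71) in epithelium. Both probe sets were highest in the stroma of cow 3, and both were higher in the epithelium of cow 6. They had the same sign in 5 of 6 cows. Their differences were furthest apart in cow 4, whose stroma read 5.69 on the second probe set, against 3.56 on the brighter one.

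FLT1 minus KDR in the difference between tissues averaged 3.40 ± 3.38 (SD, n = 6 cows), with FLT1 ahead in 5 of 6 cows. The exact sign-flip test gave p = 0.0938, and 0.0938 after adjustment over the 4 pairs.

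NRP1, the neuropilin that pairs with KDR, was strong in stroma and near the array median in epithelium. Its probe set read 7.58 to 9.08 (median 8.71) in stroma, against 2.73 to 3.87 (median 2.93) in epithelium, with no overlap. The difference was 5.46 (SE 0.38, 95% interval 4.60 to 6.32), or 44.1-fold, with an adjusted p of 0.000174 in limma. Raising low values to the array median moved it only to 5.37. The stromal SD was 0.57 and the per-cow difference was positive in 6 of 6 cows.

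NRP2, the neuropilin known in lymphatic vessels and as a co-receptor for VEGFC, was at a similar level in both tissues. The brighter of its probe sets read 3.34 to 5.17 (median 4.28) in stroma, against 3.00 to 6.16 (median 4.72) in epithelium. The cows divided evenly, 3 with more in stroma and 3 with more in epithelium. The difference of −0.43 (SE 0.55, 95% interval −1.68 to 0.81) did not pass (adjusted p = 0.678 in limma), and it became 0.042 without cow 1. The second probe set was below the array medians on all 12 arrays and gave no readable difference.

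The neuropilins were compared in the same way. NRP1 minus NRP2 averaged 5.90 ± 1.51 (SD, n = 6 cows) and was positive in 6 of 6 cows, with an exact sign-flip p of 0.0312, again the smallest possible, and 0.0625 after adjustment. The limit that the adjustment sets for VEGFA and VEGFC holds here too.

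ANGPT2, the ligand associated with vessel remodelling, was higher in stroma. Its probe set read 2.05 to 7.35 (median 5.51) in stroma, against 1.599 to 2.72 (median 2.01) in epithelium. Stroma was above epithelium in 6 of 6 cows, by 2.61, 4.73, 4.79, 2.84, 3.39 and 0.40, but the groups overlapped because the stroma of cow 6 read only 2.05. The difference was 3.13 (SE 0.59, 95% interval 1.80 to 4.45), or 8.73-fold, with an adjusted p of 0.0115 in limma. All 6 epithelial values were below the array medians, so the fold depends on the background, and raising low values to the array median left a difference of 2.37, or 5.18-fold. Without cow 3, ANGPT2 left the tested set and the call was lost. In the fit of all probe sets the adjusted p was 0.0336 with all cows and 0.0785 without cow 3 (difference 2.79). The call was kept when any other cow was left out.

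ANGPT1 was not readable. Its probe set was under the array median on all 12 arrays, at 1.79 to 2.28 in stroma, against 1.32 to 2.41 in epithelium. The difference of 0.34 (SE 0.21, adjusted p = 0.463 in the limma fit of all probe sets) is between values at background, and no direction was read from it. The pair of ANGPT1 and ANGPT2, 1 of the 4 pairs compared, was not read for the same reason.

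ANGPTL2, a secreted relative of the angiopoietins that does not bind TEK, was higher in stroma. The probe set read 4.67 to 6.61 (median 5.68) in stroma, against 1.52 to 3.09 (median 1.77) in epithelium. No value overlapped. The difference was 3.70 (SE 0.43, 95% interval 2.72 to 4.68), or 13.0-fold, with an adjusted p of 0.00114 in limma. With low values raised to the array median it was 2.65, or 6.30-fold, since 5 of 6 epithelial values were at background.

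CALCRL, the receptor that forms the adrenomedullin receptors together with RAMP2 or RAMP3, was higher in stroma by both of its probe sets. The brighter read 4.90 to 6.87 (median 5.59) in stroma, against 1.36 to 2.31 (median 1.84) in epithelium, a difference of 4.01 (SE 0.45, 16.1-fold, adjusted p = 0.000951 in limma). The second read 4.58 to 6.76 (median 5.62) in stroma, against 1.24 to 2.16 (median 1.56) in epithelium, a difference of 4.14 (SE 0.44, 17.7-fold, adjusted p = 0.000764). The groups overlapped on neither probe set. The probe sets gave the same sign in 6 of 6 cows, and their mean differences were 0.14 apart. Within cows they were further apart, with an SD of 1.55 for the gap. In cow 5 the first gave 2.59 and the second 5.33. Every epithelial value was below the array median, and raising those values left a difference of 2.82 for the first and 2.75 for the second.

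**Figure D3:**
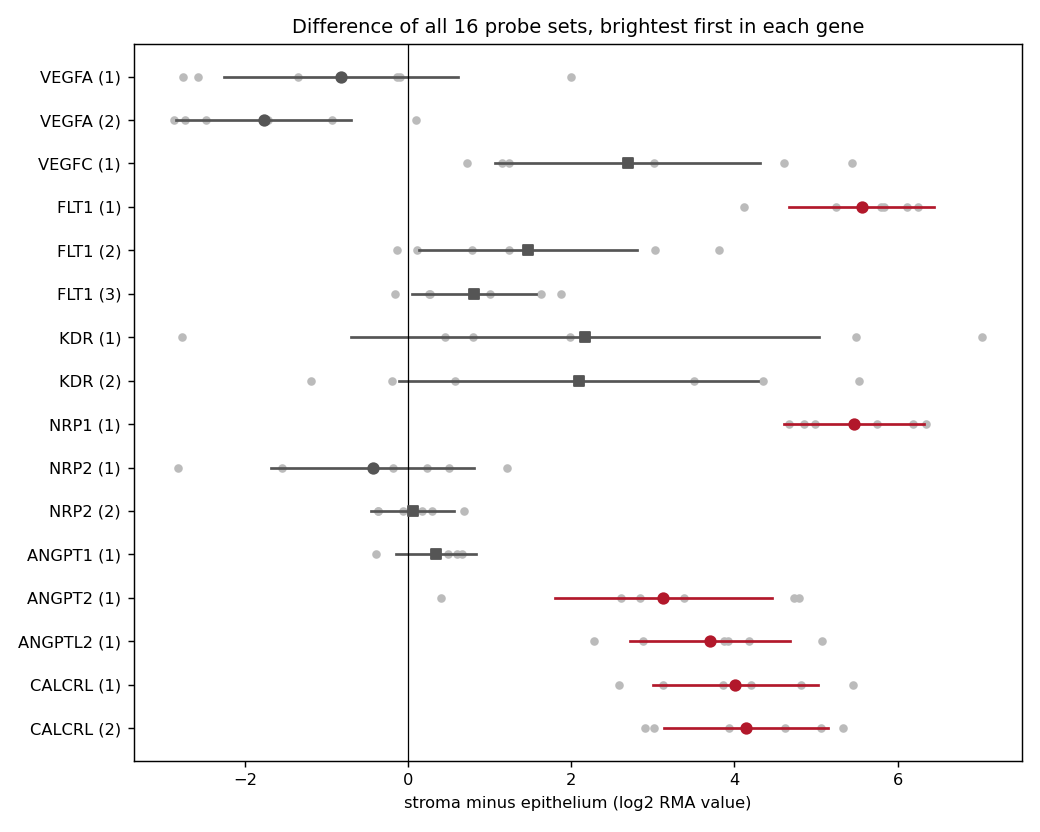
Stroma minus epithelium (log2, horizontal axis) for all 16 probe sets, numbered in order of brightness within each gene. Large points are means over 6 cows with 95% intervals that are not adjusted for multiple testing, circles mark tested probe sets and squares those outside the tested set, red marks an adjusted p under 0.05, and small grey points are the cows. The intervals of FLT1 (1), NRP1, ANGPT2, ANGPTL2 and both CALCRL probe sets lie above 1.7, and that of KDR (1) spans −0.70 to 5.03.

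The other members of these families followed in the same fits. Among the 5 VEGF family ligands, VEGFB, a ligand of FLT1, averaged 5.06 ± 1.41 in stroma and 5.29 ± 0.51 in epithelium (SD, n = 6 each), and its difference of −0.23 did not pass (adjusted p = 0.846, limma). Placental growth factor (PGF), another FLT1 ligand, read 2.87 to 6.35 in stroma, against 1.88 to 3.24 in epithelium, above in 6 of 6 cows but outside the tested set and not past the threshold (difference 1.84, adjusted p = 0.138). VEGFD read 1.63 to 5.05 in stroma, against 1.48 to 2.59 in epithelium (difference 0.80, adjusted p = 0.331). FLT4, the receptor for VEGFC, averaged 2.82 ± 0.51 in stroma and 2.47 ± 0.22 in epithelium, dim in both. No VEGF family ligand passed, tested or not.

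TEK, the receptor of the angiopoietins, gave 7.04, 6.19, 7.34, 4.03, 3.99 and 1.99 in the stroma of cows 1 to 6, against 1.52 to 1.79 in epithelium. The groups did not overlap, and the epithelial values were all below the array medians. The difference of 3.49 (SE 0.72) had an adjusted p of 0.0501 in the limma fit of all probe sets and did not pass. Over 17 alternative fits the adjusted p ranged between 0.00907 and 0.248. It was lowest without cow 6, where TEK entered the tested set, up to 0.143 without another cow, and highest with low values raised to the array median, which left a difference of 2.26. TIE1, its orphan partner, read 1.90 to 5.14 in stroma, against 1.43 to 2.02 in epithelium (difference 1.30, adjusted p = 0.242). PTPRB, the phosphatase that acts on TEK, differed by 0.93 (adjusted p = 0.188), and ANGPT4 by 0.16 (adjusted p = 0.790), both dim in both tissues.

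ANGPTL4, a lipase inhibitor of the angiopoietin-like family, was abundant in both tissues, at 7.59 to 9.32 in stroma, against 8.39 to 10.7 in epithelium. Its difference of −1.02 did not pass (adjusted p = 0.179, limma), and ANGPTL7 differed by 0.55 (adjusted p = 0.663). Of the adrenomedullin system, RAMP2, the partner that makes CALCRL an adrenomedullin receptor, read 3.86 to 7.76 (median 6.20) in stroma, against 2.18 to 4.23 (median 3.63) in epithelium. It was higher in stroma by 2.74 (SE 0.62, 6.69-fold, adjusted p = 0.0264), in 5 of 6 cows. The call was lost in the fit of all probe sets and when cow 1, 2, 3, 4 or 6 was left out, with an adjusted p of up to 0.0808. The ligand adrenomedullin (ADM) averaged 7.25 ± 0.94 in stroma and 5.91 ± 0.80 in epithelium, with a difference of 1.34 in 6 of 6 cows that did not pass (adjusted p = 0.110). RAMP1 differed by −0.76 (adjusted p = 0.401), CRCP by 0.49 (adjusted p = 0.510) and RAMP3, outside the tested set, by 1.16 (adjusted p = 0.263).

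Over the 11 lists of VEGF and vessel pathway genes, written with earlier results of these data known, 56 genes other than the members were tested. Of these 9 were higher in stroma and 1 in epithelium, which is 16.1% and 1.79%, beside 4.48% and 4.62% of all tested genes. The stromal count was 5 without cow 1, 6 without cow 2, 5 without cow 3 and 4 without cow 4, and the call in epithelium was lost without any cow but cow 6. The median difference of the 56 genes was 0.11, against −0.20 over all tested genes.

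The signalling genes downstream of the receptors did not pass in either direction. Of 18 tested genes of VEGF receptor signal transduction, 0 passed in stroma and 0 in epithelium, 5 had a positive difference and the median was −0.20, that of all tested genes. Of 17 tested hypoxia factors and targets, a group that includes known inducers of VEGFA, 2 were higher in stroma. These were the collagen prolyl hydroxylase P4HA1 (difference 2.48, SE 0.55, adjusted p = 0.0252, limma) and the hypoxia factor EPAS1, which is known from endothelium (2.60, SE 0.65, adjusted p = 0.0406). Both were lost in the fit of all probe sets. P4HA1 was also lost without any cow but cow 2 (adjusted p of up to 0.0744) and EPAS1 without any cow but cow 5 (up to 0.104). HIF1A averaged 7.87 ± 0.61 in stroma and 7.95 ± 0.73 in epithelium. The glucose transporter SLC2A1, at 8.11 to 9.23 in stroma, against 9.48 to 11.3 in epithelium, did not overlap and just missed the threshold (difference −1.53, adjusted p = 0.0508).

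Angiogenesis inhibitors had 3 of 4 tested genes higher in stroma and 0 in epithelium, beside 4.48% and 4.62% of all tested genes. Another 5 were on the array but outside the tested set, and of these only THBS2 is named here. SERPINF1, which encodes the inhibitor PEDF, read 6.72 to 8.27 in stroma, against 1.43 to 3.04 in epithelium, a difference of 5.42 (SE 0.41, adjusted p = 0.000228 in limma). All 6 epithelial values of SERPINF1 were below the array medians, and raising them left a difference of 4.59. The matrix protease ADAMTS1 was higher in stroma by 3.51 (adjusted p = 0.0107) and the metalloprotease inhibitor TIMP3 by 2.12 (adjusted p = 0.0317). The call for TIMP3 was lost in the fit of all probe sets (adjusted p = 0.0620, limma). It was also lost when cow 1, 2, 3, 4 or 6 was left out (adjusted p of up to 0.101). The fourth, THBS1, differed by −1.03 and did not pass (adjusted p = 0.127). THBS2, outside the tested set, read 3.56 to 5.98 in stroma, against 1.49 to 2.76 in epithelium, and passed in the fit of all probe sets (3.02, adjusted p = 0.0103), though not with low values raised to the array median (2.02, adjusted p = 0.0848).

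Genes that store VEGF in the matrix or release it had 3 of 8 tested genes higher in stroma and 1 in epithelium. The shares of all tested genes were 4.48% and 4.62%. The gelatinase MMP2 (5.25, SE 0.47, adjusted p = 0.000346 in limma) and fibronectin, FN1 (5.40, SE 0.52, adjusted p = 0.000473), had no overlapping value. The plasminogen activator PLAT was higher in stroma by 2.01 (adjusted p = 0.0179). The call for PLAT was lost without cow 1 or cow 4 (adjusted p of up to 0.0592) and without cows 5 and 6 (0.0667). The heparan sulfatase SULF2 was higher in epithelium by 1.82 (difference −1.82, adjusted p = 0.0497), a call that 16 of 17 alternative fits lost. Tip and stalk cell genes had 1 tested gene, the Notch ligand JAG1, which did not pass (1.95, adjusted p = 0.0665), and class 3 semaphorins and plexins, ligands and partners of the neuropilins, had 0 of 2. The endothelial Notch ligand DLL4, outside the tested set, read 3.45 to 5.47 in stroma, against 1.95 to 3.04 in epithelium, and passed in the fit of all probe sets (1.77, adjusted p = 0.0244). It did not pass with low values raised to the array median (difference 1.32, adjusted p = 0.0911) or without cow 1, 2, 3 or 4 (up to 0.0837).

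**Figure D4:**
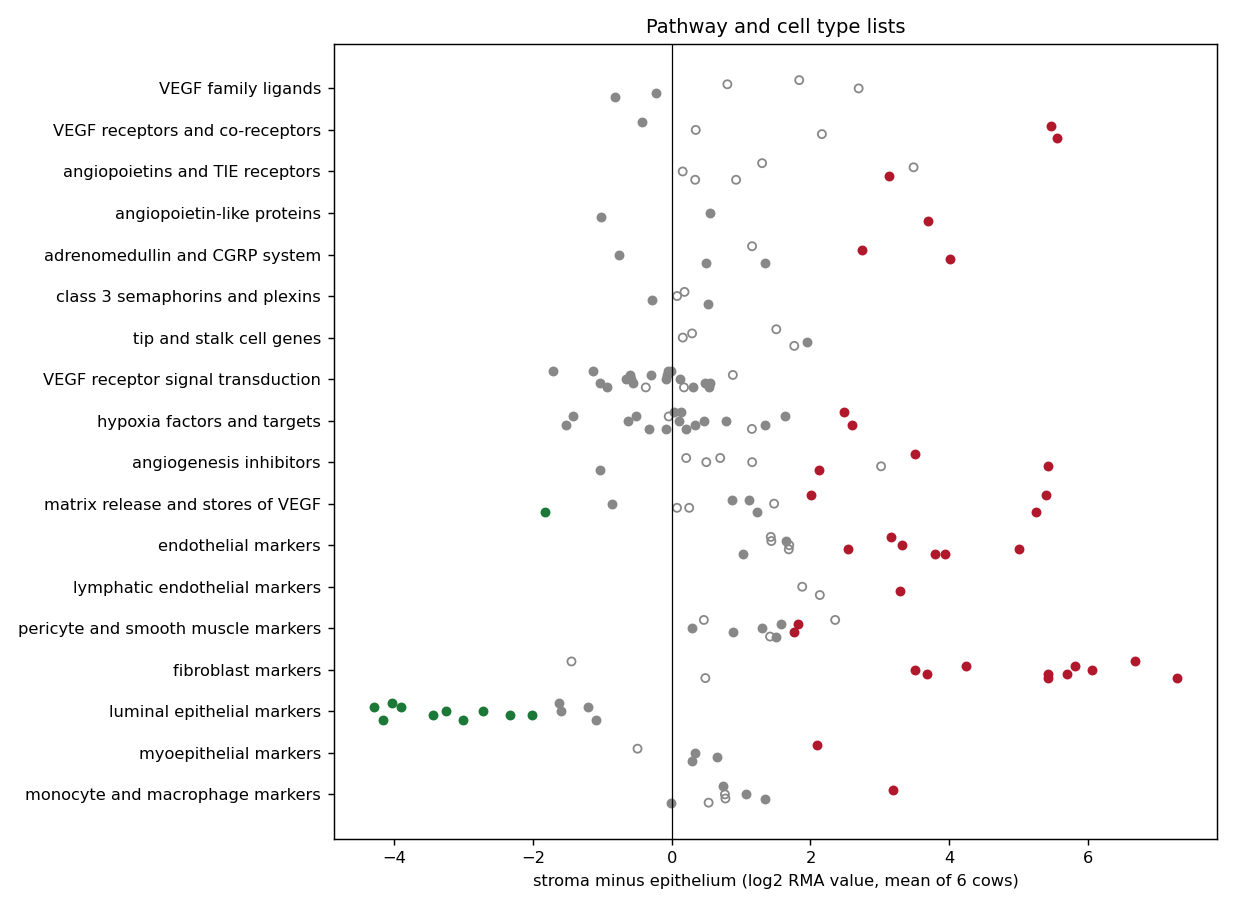
Stroma minus epithelium (log2, mean of 6 cows, horizontal axis) for the genes of each pathway and cell type list (rows). Filled red and green points were higher in stroma and in epithelium at an adjusted p under 0.05, filled grey points did not pass, and open points lie outside the tested set. Endothelial markers have 6 of 8 tested genes in red and signal transduction has 0 of 18.

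The stromal captures carried endothelial transcripts, although vessels were avoided when they were cut. Of 8 tested endothelial markers, 6 were higher in stroma and 0 in epithelium, with a median difference of 3.24 against −0.20 over all tested genes. They were the junction genes CDH5 (difference 5.00), CLDN5 (3.16) and PECAM1 (3.94), with EMCN (3.79), ERG (3.32) and CD34 (2.55), at adjusted p-values of 0.000237 to 0.0179 in limma. The call for ERG was lost in the fit of all probe sets (adjusted p = 0.0513), without cow 1 (0.0604) and without cow 2 (0.0544). The mean level over the 8 markers was 6.34 to 6.92 in stroma, against 3.01 to 3.84 in epithelium, higher in 6 of 6 cows by 3.05 ± 0.33 (SD). Their summed signal on the linear scale was 800 to 1532 in stroma, against 70.0 to 136 in epithelium. Background is part of these sums, the more so in epithelium, where the mean level lay little above the array medians of 2.95 to 3.08. Of the 8 markers, 1 had an epithelial mean below the lowest array median. FLT1, KDR, TEK and CALCRL are themselves known from endothelium. Fewer endothelial cells and less RNA per cell cannot be told apart in these captures. The part of the endothelial share in the differences of the 10 genes was not tested.

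The labelled tissues carried their own markers. Of 10 tested fibroblast markers, 10 were higher in stroma, with a median difference of 5.56, and of 14 luminal epithelial markers 10 were higher in epithelium, with a median of −2.87. The fibroblast level was 9.15 to 10.05 in stroma, against 3.28 to 5.55 in epithelium, and the luminal level 4.54 to 6.46 in stroma, against 7.70 to 9.47 in epithelium. Summed on the linear scale, the luminal signal was 706 to 15433 in stroma, against 9257 to 28902 in epithelium. The brightest genes, here milk protein genes, weigh most in such a sum. The milk protein gene CSN2 read 4.82 to 12.8 in stroma, against 8.81 to 13.2 in epithelium, and CSN3 8.02 to 12.1, against 11.2 to 12.5. The part of epithelial transcripts in the stromal VEGFA values was not tested. Of the other cell types, 2 of 7 pericyte and smooth muscle markers were higher in stroma (PDGFRB and TAGLN), beside 4.48% of all tested genes. So were 1 of 4 myoepithelial markers (MYLK) and 1 of 5 monocyte and macrophage markers (MSR1). Of 17 alternative fits, 14 lost the call for TAGLN, 9 for MSR1, 7 for PDGFRB and 4 for MYLK. PDPN was the 1 lymphatic marker tested (higher in stroma by 3.29, adjusted p = 0.0117 in limma).

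The stromal and epithelial arrays also differed in ways that did not pass a test. The poly-A control RNAs averaged 4.15 to 10.99 in stroma, against 3.07 to 6.58 in epithelium (exact sign-flip p = 0.0938). The GAPDH signal of the 3′ probe set minus that of the 5′ probe set, a sign of RNA degradation, averaged 3.35 in stroma and 2.67 in epithelium and was higher in stroma in 5 of 6 cows (exact p = 0.281). This difference of log2 RMA values is not the 3′ to 5′ ratio of the methods, which, with RNA integrity numbers, found the RNA suitable. The median over the tested probe sets was lower in stroma by 0.17 (exact p = 0.0625). Of all tested probe sets 455 (4.54%) were higher in stroma and 477 (4.76%) in epithelium, and these became 516 and 361 once the median of the tested probe sets was set to be equal on all arrays. The counts for the 10 genes stayed at 5 and 0 under that centring.

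The stromal arrays of cows 4, 5 and 6, where the control RNAs were high, also gave the lower values of FLT1 and TEK, but not of every receptor. FLT1 read 8.82, 8.01 and 8.40 in the stroma of cows 1, 2 and 3, against 7.37, 7.29 and 6.62 in that of cows 4, 5 and 6, and TEK divided the cows in the same way. NRP1 did not: its stroma read 8.98, 8.16 and 9.08 in cows 4, 5 and 6, among them its highest values, against 8.71, 8.70 and 7.58 in cows 1, 2 and 3. CALCRL on its brighter probe set read 5.31, 4.90 and 6.82 in the stroma of cows 4, 5 and 6, against 6.87, 5.14 and 5.87 in that of cows 1, 2 and 3. KDR on its brighter probe set ran lower in cows 4, 5 and 6, at 3.56, 2.15 and 1.41, against 6.93, 3.26 and 9.29, although cow 4 was above cow 2. ANGPT2 read 4.54, 5.70 and 2.05 in cows 4, 5 and 6, against 5.33, 6.33 and 7.35, with cow 5 above cow 1. Cows 4, 5 and 6 all have lactation number 1 in the labels, as has cow 3. The part of the control RNAs or of lactation number in these values was not tested. With cows 1, 2 and 3 alone, all 5 called genes still passed. This split was chosen after seeing the data, so it is no independent check of the calls. FLT1 differed by 6.07 (adjusted p = 0.0166 in limma), NRP1 by 5.09 (0.0168), ANGPT2 by 4.05 (0.0358), ANGPTL2 by 3.64 (0.0310) and CALCRL by 4.05 (0.0271). TEK and KDR entered the tested set with these cows, where TEK passed, with a difference of 5.24 (0.0168), and KDR, at 4.44, did not (0.133).

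The genes whose pattern was most like that of each member were taken from the correlation over the 12 arrays after each tissue's mean was removed. It reads variation among the arrays of a tissue, in which cow and capture cannot be told apart. Each is the highest of 5221 other tested genes, the arrays of a cow share the animal, and the values are descriptions. VEGFA was most like the aryl hydrocarbon receptor AHR (r = 0.91), the kinase PRPF4B (0.90) and CAND1 (0.89). FLT1 was most like the interleukin-1 antagonist IL1RN (0.94), PHF10 (0.90) and ARHGEF5 (0.88), and NRP1 was most like KAT2B (0.91), FLNC (0.90) and COPG1 (0.89). NRP2 was most like INTS11 (0.87), RPL15P (0.81) and CTSB (0.81), and for INTS11 the epithelial arrays carried it, with r = 0.14 within stroma and 0.97 within epithelium. ANGPT2 was most like SPCS2 (0.93), CCNL1 (0.89) and the endothelial cadherin CDH5 (0.89), which was the 1 endothelial marker among these 21 genes. For ANGPT2 the stromal arrays carried the likeness, with r between 0.92 and 0.98 within stroma and between 0.24 and 0.48 within epithelium. ANGPTL2 was most like BAP1 (0.87), TNS1 (0.86) and SFRP1 (0.85), and CALCRL was most like NOL3 (0.85), TDRD7 (0.83) and KATNA1 (0.83), of which NOL3 and KATNA1 had r = 0.93 and 0.90 within stroma and 0.56 and 0.34 within epithelium. No gene was among the 3 most alike for more than 1 member.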

How the data were processed

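The values were log2 signals of Bovine GeneChip probe sets, deposited by the authors, who made them by RMA (BioConductor) with quantile normalization over a set of arrays of which these 12 are part. Array medians were 2.95 to 3.08, and the number of arrays limits the precision. Probe sets were named by the platform annotation, and only those with 1 gene symbol stood for a gene.

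The fits used limma 3.58.1 in R 4.3.3, with tissue as the term tested and cow as a fixed block. Both arrays of a cow come from the same animal, as the design states, and carry the same replicate number. Same-cow deviations from the tissue means correlated at 0.026 to 0.20. The methods fitted tissue alone, which was run as an alternative. Tested were the 10031 probe sets brightest on average, which is the number that passed the detection filter of the methods. The detection calls themselves were not used here. Adjusted p-values are Benjamini-Hochberg over all tested probe sets, with a threshold of 0.05. For members outside that set, the same model was fitted to all 24016 probe sets. Pairs were compared within cow by exact sign-flip tests, two-sided. The fits were tested on simulated data.

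Named were all members, all genes on the array of the VEGF, angiopoietin, angiopoietin-like and adrenomedullin lists, up to 3 genes per direction of each list, and the 3 genes most like each member. JAG1, HIF1A, SLC2A1, THBS1, THBS2 and DLL4, and the endothelial markers past 3, were added after their values were seen. The members and lists were chosen with earlier results of these data known.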

Additional observations from a re-analysis of the deposited data

Results flagged for a closer look

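In 3 of 32 groups of 6 arrays, 1 for each tissue and probe set, the highest or lowest array stood apart from the others by Dixon's test, which chance does in about 1 group in 20. The epithelium of cow 6 read 4.19 for KDR on its brighter probe set, against 2.46 for the next highest epithelial array, and it is the cow in which both KDR probe sets were higher in epithelium. The epithelium of cow 3 read 2.41 for ANGPT1, against 1.67 for the next, both under the array medians. The epithelium of cow 5 read 3.09 for ANGPTL2, against 2.04 for the next, and that cow's stroma read 5.37.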

How the results depend on the processing

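The counts for the 10 genes stayed at 5 in stroma and 0 in epithelium in all alternatives except 3. With only the 5000 brightest probe sets tested, 1 gene remained, since most called members are outside that set by construction. With probe sets above the array median on at least 8 arrays, 2 remained for the same reason. Without cow 3 it was 4, so that leaving out 1 cow gave 4 to 5. Of the probe set differences of the members over the alternatives, 264 kept their direction and side of the threshold, 7 newly passed, 1 no longer passed (ANGPT2 without cow 3, where it left the tested set) and 5 turned sign. The brighter NRP2 probe set read 0.042 without cow 1, with a range of −0.76 to 0.042 over the fits without 1 cow. The dim NRP2 probe set read −0.018 after quantile normalization again, −0.086 without cows 4, 5 and 6, and −0.068 to 0.14 without 1 cow. The brightest VEGFA probe set read 0.59 without cows 4, 5 and 6. VEGFB read −0.62 to 0.13 without 1 cow, 0.56 without cows 5 and 6, and 0.19 without cows 4, 5 and 6. The causes were not tested.

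Without the cow block, 481 probe sets were higher in stroma and 462 in epithelium, and the 10 genes kept 5 and 0. VEGFC, SLC2A1 and TEK passed without the block, and SULF2 did not. Over all probe sets, counts in stroma and epithelium were 239 and 274 with the 5000 brightest, 227 and 83 without cows 4, 5 and 6, and 323 to 454 and 266 to 410 without 1 cow, and the epithelial count was 244 without cows 5 and 6. The other pathway genes gave 4 to 9 calls in stroma and 0 to 1 in epithelium without 1 cow, and 5 and 0 without cows 4, 5 and 6. The epithelial count was 2 with cow as a random block and 0 with no filter, with the 8-array filter, after centring and without cows 5 and 6. Leaving out cows 4, 5 and 6 was chosen after seeing the data. The pairs VEGFA and VEGFC, FLT1 and KDR, and NRP1 and NRP2 kept their sign in every alternative. Levels under the array medians limit VEGFC, KDR, ANGPT1 and the epithelial side of most folds.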
